A study of Mus musculus with 6 samples.

Results

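Expression of 10 feedback genes of the mitogen-activated protein kinase (MAPK) pathway was compared between 3 arrays from transgenic and 3 from control mice. The genes were the dual-specificity phosphatases Dusp4, Dusp5 and Dusp6, the Sprouty genes Spry1, Spry2 and Spry4, the Sprouty-related gene Spred1, the transcription factor genes Etv4 and Etv5, and Phlda1. They were chosen by name, with earlier results of these data known, each as the array row annotated to that 1 gene symbol. Etv5, which had a pair of such rows, was taken from the brighter one on average. All 10 were measured, among 19938 named genes in all, and no filter on low values was applied.

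The transgenic mice carried R26-M2rtTA together with a TRE-driven Musashi transgene, and the control mice carried R26-M2rtTA alone. R26-M2rtTA is a doxycycline-dependent transcriptional activator placed at the Rosa26 locus, which is known to be active in most cell types, and a TRE promoter is switched on by it. Both groups drank doxycycline for 24 h, so the drug and the activator were shared and the groups differed in the transgene. RNA came from total epithelial cell preparations of the jejunum and was measured on whole-transcript gene arrays, 3 per group. The arrays are titled as biological replicates, and the titles do not say whether each was 1 animal. Ages were not given in the sources used here.

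The MAPK pathway carries signals from growth factor receptors through Ras and a chain of kinases to ERK, which enters the nucleus and changes transcription. ERK also switches on its own restraints: phosphatases that remove its activating phosphates, and Sprouty and Spred proteins that act upstream near the receptor and Ras. In the intestinal epithelium this signalling, driven mainly by ligands of the EGF receptor, is known for supporting crypt cell division, and the transcripts of these feedback genes are widely read as a record of recent ERK activity.

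Values are log2 signals after RMA (a procedure that corrects background, equalizes the distributions of the arrays and summarizes probes), and 1 unit is a doubling. The series design describes a TRE-Msi1 transgene, while the genotype label of the transgenic samples reads TRE-MSI2::R26-M2rtTA. Msi1 had log2 signals of 12.51, 12.68 and 12.62 on the transgenic arrays, against 6.95, 7.03 and 6.86 on the control arrays (difference 5.66, SE 0.0894, limma adjusted p = 1.34e-05). The difference was 5.71 without transgenic replicate 1 (limma adjusted p = 5.56e-08). Msi2 had 8.57, 8.08 and 8.01 on the transgenic arrays and 8.59, 8.71 and 8.62 on the control arrays. Its difference of -0.42 did not pass (limma adjusted p = 0.168), and without transgenic replicate 1 Msi2 fell by 0.59 (limma adjusted p = 0.0011). One array stood apart, transgenic replicate 1, whose correlation with the others across genes was 0.922 to 0.951, against 0.996 between transgenic replicates 2 and 3 and 0.995 to 0.996 between controls. Differences and counts of calls are therefore also given without it. All samples were bulk preparations, in which fewer cells of a type and less RNA per cell cannot be told apart.

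All 10 feedback genes had a higher mean in the transgenic epithelium. Phlda1, Spred1, Spry4 and Dusp4 rose, that is, they passed an adjusted p of 0.05 in limma's test across all genes, and 0 fell. For comparison, 6.04% of all 19938 genes were called higher and 5.84% lower. Because the 10 genes were chosen with earlier results of these data known, the comparisons with all genes describe them and do not test them. The median difference of the 10 genes was 0.90 log2 units, against -0.04 over all genes tested. On 9 of the 10, Etv4 being the exception, every transgenic array lay above every control array, a pattern shown by 16.0% of all genes, while 18.2% of all genes had every transgenic array below every control and 0 of the 10 did. Without transgenic replicate 1 the calls were 8 higher and 0 lower, at a background of 14.0% of genes called higher and 14.5% lower. The median difference of the 10 genes was then 0.61, against -0.03 over all genes. An exact permutation test of 3 against 3 arrays, two-sided, cannot go below p = 0.1. The calls therefore rest on limma's model, with normal errors, the same variance in both groups and part of that variance shared across genes.

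**Figure D1:**
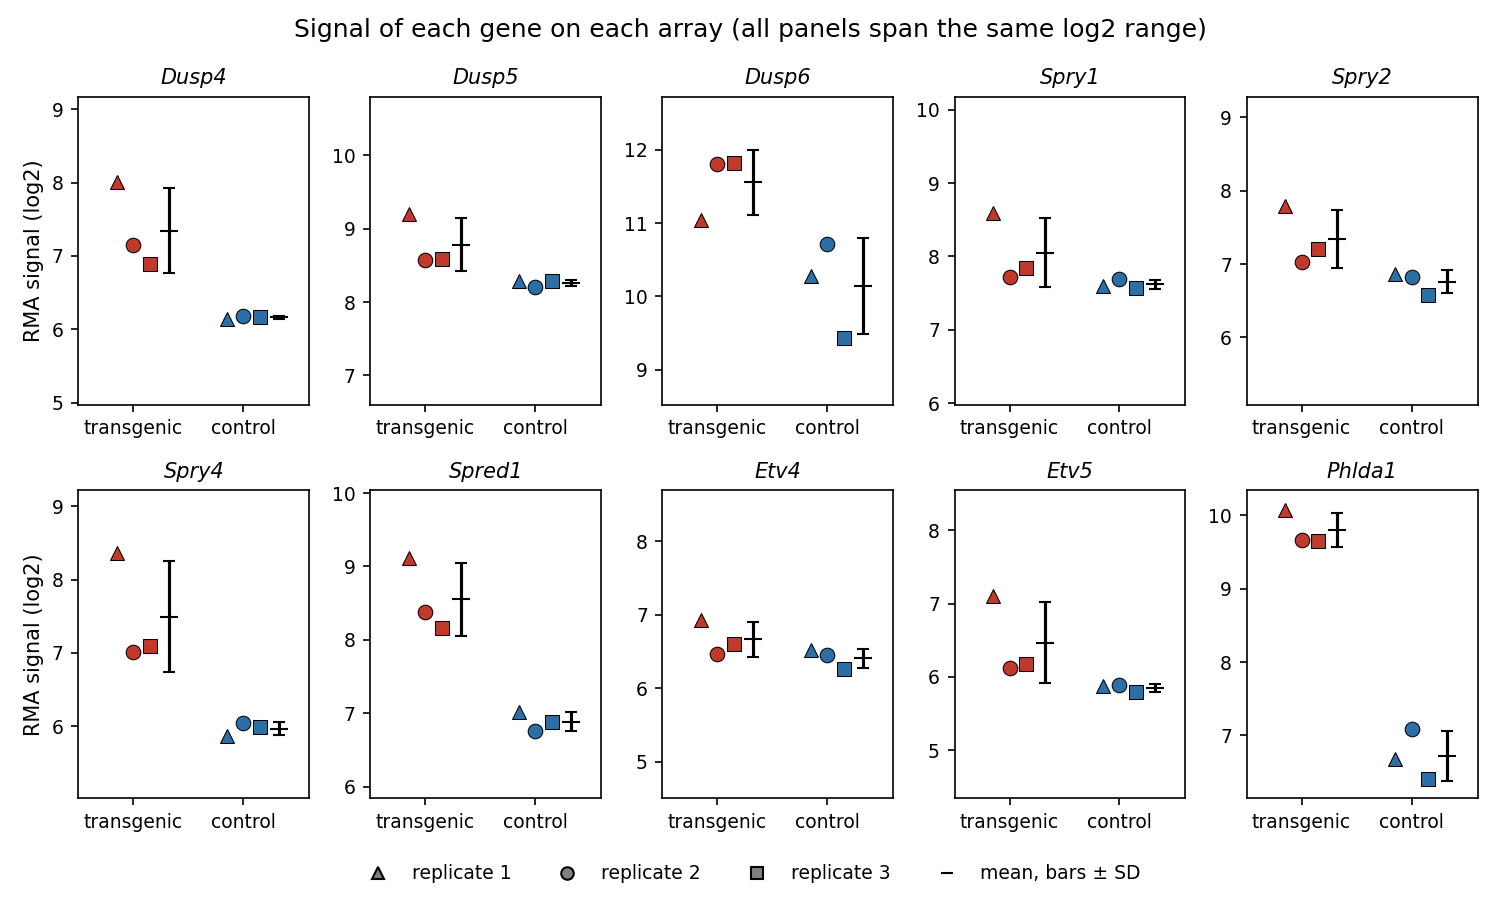
The log2 RMA signal of each gene (vertical axis, each panel spanning the same range) on the 3 transgenic arrays (red, left) and the 3 control arrays (blue, right), with the marker shape giving the replicate and the bar the mean ± SD. The transgenic replicate 1 triangle is the highest point in every panel except Dusp6, and the red and blue points overlap only for Etv4.

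Sequence just before the transcription start is shown for 3 of the genes because ERK signalling is known to act on some of them through their promoters: ERK inactivates the repressor Capicua (gene Cic), which binds octamers of the kind TGAATGAA, TGAATGGA, TCAATGAA and TCAATGGA. Windows of 250 bases before the start were matched by symbol in RefSeq (mouse GRCm38.p6) for 6 of the 10 genes, Dusp5, Dusp6, Spry1, Spry2, Spred1 and Etv5, with both starts of Etv5 included. The 4 octamers, the AP-1 motif TGANTCA, the cyclic AMP element TGACGTCA and the ETS motif CCGGAAG were searched on both strands, and no 2 matches overlapped. An octamer stood in the windows of Dusp6 (the reverse of TCAATGGA, 24 to 17 bases before the start) and Spry2 (the reverse of TCAATGAA, 54 to 47 bases before the start), and no other motif matched in any of the 7 windows. At least 1 of the 4 octamers was held by 3.19% of all 32851 windows of that length, AP-1 by 6.75%, the cyclic AMP element by 1.55% and the ETS motif by 6.91%. Capitals mark the match in Dusp6 (chr10:99262981-99263230, plus strand) and in Spry2 (chr14:105896820-105897069, minus strand), and Spred1 (chr2:117120821-117121070, plus strand) is shown as the strongest call among the genes with a window, with 0 matches.
Dusp6: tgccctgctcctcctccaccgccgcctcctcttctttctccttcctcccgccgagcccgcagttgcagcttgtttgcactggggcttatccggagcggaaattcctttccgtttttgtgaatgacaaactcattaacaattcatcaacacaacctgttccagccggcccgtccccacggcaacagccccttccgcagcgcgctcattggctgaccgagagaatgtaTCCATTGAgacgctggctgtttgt
Spry2: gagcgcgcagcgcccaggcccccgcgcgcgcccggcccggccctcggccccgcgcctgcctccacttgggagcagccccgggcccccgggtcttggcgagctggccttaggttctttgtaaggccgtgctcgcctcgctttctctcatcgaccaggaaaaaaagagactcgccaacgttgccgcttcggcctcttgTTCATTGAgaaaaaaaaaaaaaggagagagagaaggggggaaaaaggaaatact
Spred1: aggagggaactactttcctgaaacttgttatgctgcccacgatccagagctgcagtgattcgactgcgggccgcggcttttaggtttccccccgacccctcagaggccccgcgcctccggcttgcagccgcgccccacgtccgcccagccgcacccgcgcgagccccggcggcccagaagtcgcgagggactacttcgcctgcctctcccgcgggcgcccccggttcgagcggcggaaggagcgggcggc

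The 3 phosphatases were all higher on average in the transgenic epithelium, and the nuclear phosphatase Dusp4 passed. Dusp4, which removes phosphates from ERK and related kinases, had signals of 8.0003, 7.14 and 6.89 on transgenic replicates 1 to 3, against 6.14, 6.19 and 6.16 on the controls. The controls lay within a narrow band and the lowest transgenic array was 0.71 log2 units above the highest of them. The difference was 1.18 (SE 0.279, 95% interval 0.50 to 1.86, limma adjusted p = 0.0462), or 2.27-fold. Without transgenic replicate 1 the rise was 0.85 (SE 0.0971, limma adjusted p = 3.53e-04). The call was lost without control replicate 1, 2 or 3 or without transgenic replicate 2, where limma's adjusted p was 0.162, 0.158, 0.151 and 0.0955, while the difference stayed between 1.17 and 1.28. It also missed the threshold when the array medians were made equal (limma adjusted p = 0.0517).

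Dusp6, the cytoplasmic phosphatase that acts on ERK, was the only one of the 10 genes with its lowest transgenic value on replicate 1. Its signals were 11.04, 11.80 and 11.82 on the transgenic arrays, against 10.28, 10.72 and 9.43 on the controls. The groups did not overlap, but the controls spread over more than a log2 unit, with the highest control SD of the 10 genes (0.65, n = 3, against 0.02 for Dusp4). With all arrays the difference of 1.41 (SE 0.375, 95% interval 0.50 to 2.32) did not pass, at a limma adjusted p of 0.0657. Without transgenic replicate 1 Dusp6 rose by 1.67 (SE 0.307, limma adjusted p = 0.0039), or 3.18-fold, the second largest rise of the 10 on those 5 arrays.

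Dusp5, a nuclear phosphatase specific for ERK, differed less. Its signals were 9.20, 8.57 and 8.58 on the transgenic arrays, against 8.28, 8.21 and 8.29 on the controls. Transgenic replicate 1 stood above the rest, and replicates 2 and 3 were within 0.0153 of each other. The difference of 0.52 (SE 0.181, 95% interval 0.08 to 0.97) did not pass (limma adjusted p = 0.133), and without replicate 1 Dusp5 rose by 0.32 (SE 0.081, limma adjusted p = 0.0186), or 1.25-fold.

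Among the Sprouty and Spred genes, Spred1 and Spry4 rose while Spry1 and Spry2 did not pass. Spred1, which brings the Ras inactivator neurofibromin to the membrane, had 9.11, 8.38 and 8.17 on the transgenic arrays, against 7.01, 6.76 and 6.88 on the controls. Every transgenic array was at least 1.15 log2 units above every control. The difference was 1.67 (SE 0.249, 95% interval 1.06 to 2.27, limma adjusted p = 0.0111), or 3.18-fold, and it exceeded that of 99.4% of all genes. It was 1.39 without transgenic replicate 1 (SE 0.109, limma adjusted p = 5.78e-05). Leaving out control replicate 1, 2 or 3 ended the call, with limma adjusted p-values of 0.0548, 0.0645 and 0.0558 and differences of 1.73, 1.61 and 1.67.

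Spry4, an inhibitor of receptor signalling to Ras, had 8.37, 7.02 and 7.10 on the transgenic arrays, against 5.87, 6.04 and 5.99 on the controls. Replicate 1 was 1.31 above the mean of the other transgenic arrays, the largest such gap of the 10 genes, and those 2 arrays were themselves about 1 log2 unit above the controls. The difference was 1.53 (SE 0.361, 95% interval 0.65 to 2.41, limma adjusted p = 0.0459), or 2.89-fold. Without transgenic replicate 1 it was 1.09 (SE 0.0898, limma adjusted p = 7.16e-05), or 2.13-fold. As for Dusp4, the call depended on other arrays: limma's adjusted p was 0.167, 0.152 and 0.147 without control replicate 1, 2 or 3, 0.0647 and 0.0679 without transgenic replicate 2 or 3, and 0.05002 with equal array medians.

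Spry2, another inhibitor of receptor signalling to Ras, had 7.79, 7.03 and 7.20 on the transgenic arrays, against 6.87, 6.83 and 6.58 on the controls. The groups were separated by 0.16. The difference of 0.58 (SE 0.209, 95% interval 0.07 to 1.09) did not pass (limma adjusted p = 0.147), and without transgenic replicate 1 Spry2 rose by 0.36 (SE 0.112, limma adjusted p = 0.0451).

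Spry1, a further member of the family, had 8.59, 7.72 and 7.84 on the transgenic arrays, against 7.59, 7.69 and 7.57 on the controls. Transgenic replicate 1 stood high, and the other transgenic arrays lay next to the controls, the gap between the groups being 0.0342. Its difference was 0.43 with all arrays (SE 0.231, 95% interval -0.13 to 0.99, limma adjusted p = 0.329) and 0.16 without replicate 1 (SE 0.0874, 95% interval -0.04 to 0.36, limma adjusted p = 0.234), neither of which passed. The difference between Spry1 and Spry4 in response was not tested.

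**Figure D2:**
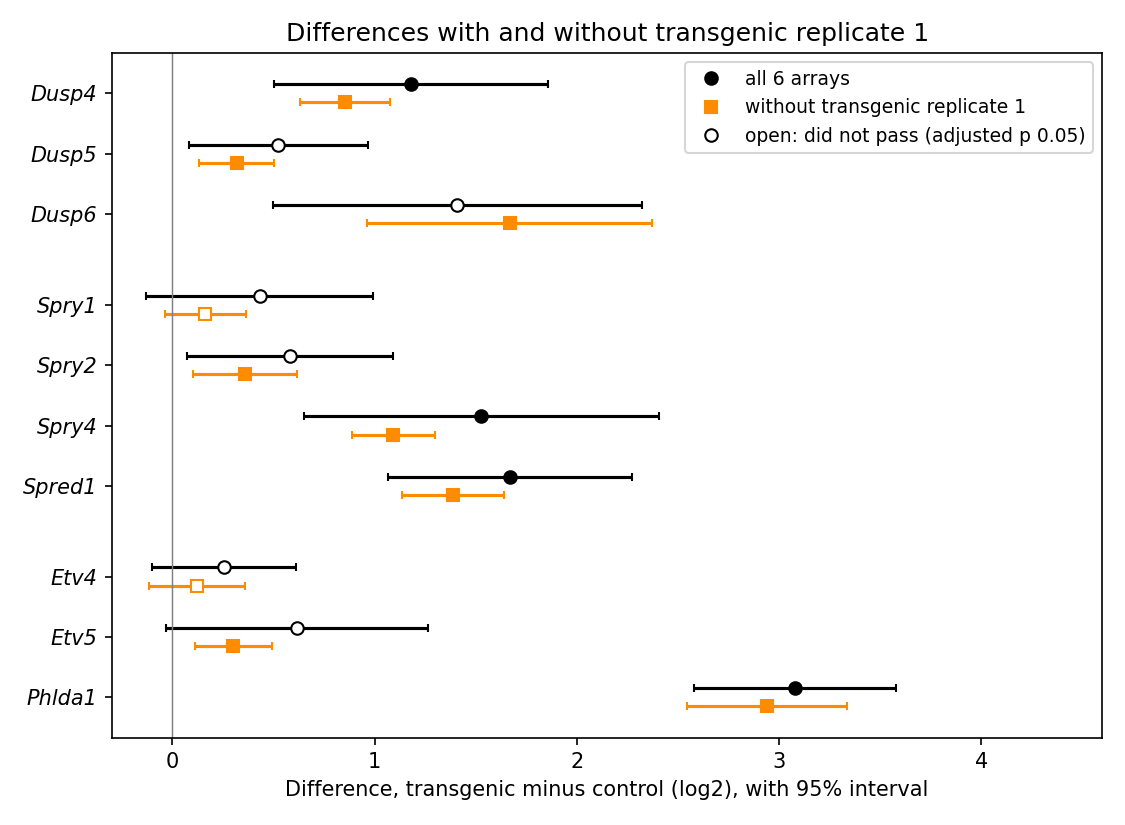
Difference between the transgenic and control means of each gene (log2, horizontal axis) with its 95% interval from limma, for all 6 arrays (black circles) and without transgenic replicate 1 (orange squares), with open symbols for differences that did not pass. The intervals without replicate 1 are narrower for all 10 genes, and those of Spry1 and Etv4 include 0 in both fits.

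Neither transcription factor gene passed with all arrays, while Phlda1 did. Etv5, an ETS factor of the PEA3 subfamily that is transcribed in response to FGF and ERK signals, had 7.10, 6.13 and 6.18 on the transgenic arrays, against 5.87, 5.89 and 5.79 on the controls. All transgenic arrays were higher, and replicate 1 was 0.95 above the mean of the other transgenic arrays. The difference of 0.62 (SE 0.266, 95% interval -0.03 to 1.26) did not pass (limma adjusted p = 0.22), and without replicate 1 Etv5 rose by 0.30 (SE 0.0829, limma adjusted p = 0.0262). The gene has a second row, not used above, with 6.498, 5.91 and 6.01 on the transgenic arrays, against 5.62, 5.94 and 5.77 on the controls. In that row the groups overlapped and the difference was 0.36 (0.19 without replicate 1). It did not pass in either fit (limma adjusted p = 0.284 and 0.29 over all rows). The Etv5 call without replicate 1 thus holds for 1 of its 2 rows. Among the genes read here, row numbers mostly run by chromosome, and Etv5 is on chromosome 16. The number of the used row lies between those of Egr2 and S100b on chromosome 10. That of the second row follows Myh11 on chromosome 16. Whether the used row reads Etv5 itself was not tested. The counts above of genes without overlap and of calls without replicate 1 include it as Etv5.

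Etv4, a PEA3 factor closely related to Etv5, had 6.94, 6.46 and 6.60 on the transgenic arrays, against 6.52, 6.45 and 6.26 on the controls. It was the 1 gene of the 10 whose groups overlapped. Its difference was 0.26 (SE 0.146, 95% interval -0.10 to 0.61, limma adjusted p = 0.363), and 0.12 without transgenic replicate 1 (SE 0.103, 95% interval -0.12 to 0.36, limma adjusted p = 0.496). On those 5 arrays the interval reached no higher than 0.36 log2 units.

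Phlda1, a small pleckstrin-homology domain protein whose transcript is induced by ERK and which is known from human intestine as a marker of crypt stem cells, changed most of the 10. Its signals were 10.07, 9.67 and 9.66 on the transgenic arrays, against 6.67, 7.08 and 6.41 on the controls. The transgenic arrays agreed closely and the lowest of them was 2.57 log2 units above the highest control. Phlda1 rose by 3.08 (SE 0.205, 95% interval 2.58 to 3.58, limma adjusted p = 0.00158), or 8.45-fold, a difference greater than that of 99.8% of all genes. Without transgenic replicate 1 the rise was 2.94 (SE 0.173, limma adjusted p = 1.57e-05), or 7.68-fold. It was the 1 gene of the 10 that passed in every alternative run, with limma adjusted p-values of at most 0.0168.

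The difference from the controls was not the same on the 3 transgenic arrays. Transgenic replicate 1 had the highest signal of the 6 arrays for 9 of the 10 genes, Dusp6 being the exception, while it was the highest for 24.3% of all genes. Relative to the control mean, replicate 1 was higher by 0.53 for Etv4, 0.97 for Spry1, 1.25 for Etv5 and 2.40 for Spry4, whereas the mean of replicates 2 and 3 was higher by 0.12, 0.16, 0.30 and 1.09 for the same genes. Dusp6 showed the opposite order, with 0.89 on replicate 1 and 1.67 for replicates 2 and 3 on average. Replicates 2 and 3 differed from each other by at most 0.25, the value of Dusp4.

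**Figure D3:**
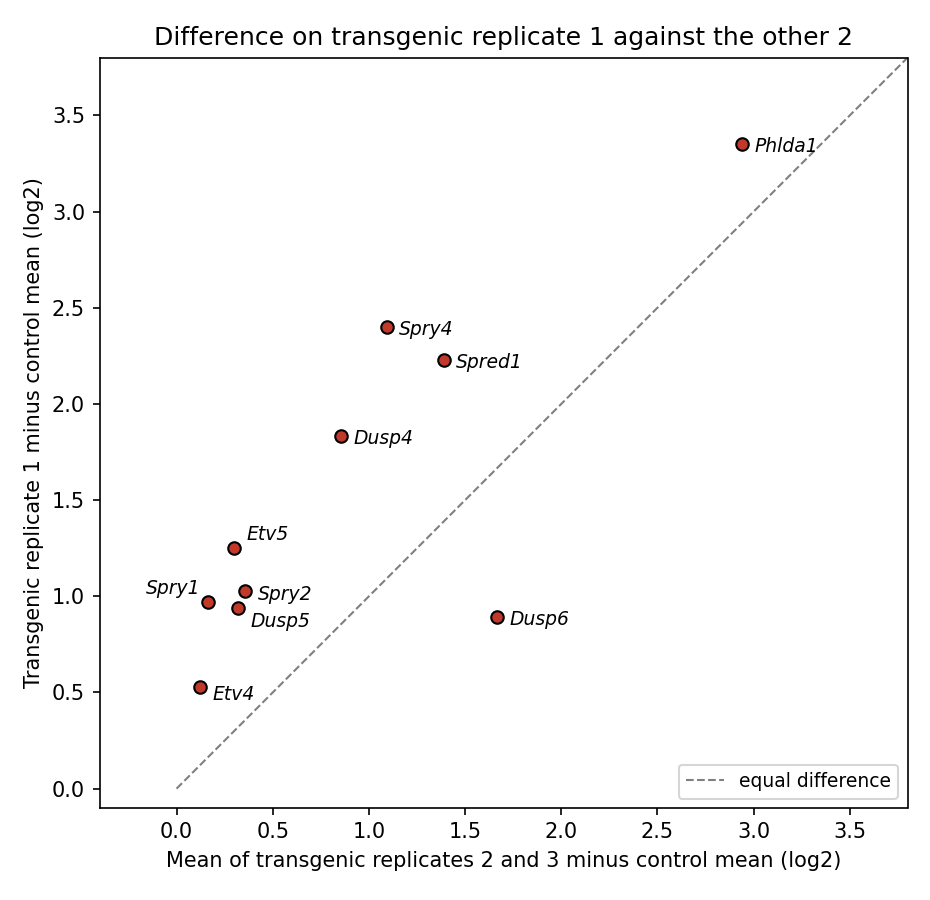
For each gene, the signal on transgenic replicate 1 minus the control mean (vertical axis, log2) against the mean of transgenic replicates 2 and 3 minus the control mean (horizontal axis, log2), with a dashed line of equal difference. Of the 10 genes 9 lie above the line, and Dusp6 lies below it at 1.67 across and 0.89 up.

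Cell type markers also set transgenic replicate 1 apart. The summed signal of 5 enterocyte markers (log2 of the sum) was 11.95, 14.23 and 14.17 on transgenic replicates 1 to 3 and 14.61 to 14.72 on the controls, and that of 6 T cell markers was 8.22, 10.18 and 10.22 on the transgenic arrays and 10.60 to 10.94 on the controls. Proliferation markers were highest on that array, with summed signals of 12.65, 11.03 and 10.96 on the transgenic arrays and 11.48 to 11.59 on the controls. None of these 5, 6 and 5 markers passed with all arrays by limma, while 3 enterocyte, 4 T cell and 4 proliferation markers passed as lower without transgenic replicate 1. The labelled cell type was checked on 6 general epithelial markers, of which Cdh1 rose (0.34, and 0.37 without replicate 1) while Vil1 and Cdx2 fell without replicate 1 (by 0.26 and 0.32, limma adjusted p = 0.0456 and 0.029), with summed signals of 14.34 to 14.42 on the transgenic arrays and 14.42 to 14.45 on the controls. On replicate 1 these 6 markers differed from the control mean by -1.33 (Vil1), -0.64 (Cdx2), -0.24 (Epcam), -0.11 (Krt8), 0.27 (Cdh1) and 1.30 (Krt18). Of 6 crypt base stem cell markers Olfm4 and Ascl2 fell (4 fell without replicate 1). Sums of the 6 stem cell markers were 10.40 to 11.18 on the transgenic arrays and 12.06 to 12.35 on the controls. Olfm4, the brightest of the 6 on the controls, carries that sum, and 3 of the others were higher on replicate 1 than on any control: Lgr5 had 8.56 against at most 7.87, Smoc2 9.31 against at most 8.55 and Rnf43 9.33 against at most 8.76. The median of the 6 on replicate 1 minus the control mean was 0.09. Of 8 secretory and tuft cell markers Muc2 fell (4 fell and 1 rose without replicate 1). The tuft markers Dclk1 and Trpm5 passed in neither fit and varied among the controls. Dclk1 had 8.10, 8.82 and 7.13 and Trpm5 had 7.92, 8.49 and 6.90 on control replicates 1 to 3. Whether that spread bears on the spread of Dusp6 among the controls was not tested. Markers of other cells had low and similar sums: 8.83 to 9.06 on transgenic arrays and 9.04 to 9.28 on control arrays for 6 fibroblast genes, 7.82 to 8.06 on transgenic arrays and 8.003 to 8.062 on control arrays for 5 endothelial genes, and 8.49 to 8.70 on transgenic arrays and 8.41 to 8.49 on control arrays for 6 macrophage genes. Of these, 0 passed with all arrays and, without replicate 1, 1 fibroblast marker passed as lower (Dcn, difference -0.59) and 1 macrophage marker as higher (Itgam, 0.71). Of 5 smooth muscle, 3 B cell, 3 neutrophil and 3 enteric glia and neuron markers 0 passed with or without replicate 1. No marker was listed at 0 on these log2 signals, and the part of these shifts in the feedback genes was not tested.

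The surrounding pathway was read from 4 lists of other genes, 63 of which had a row of their own, and 15 of them rose and 2 fell. Without transgenic replicate 1, 28 rose and 7 fell. The shares of all genes called are those given above, 6.04% higher and 5.84% lower with all arrays, and 14.0% and 14.5% without replicate 1. The lists too were chosen with earlier results known, so the shares stand beside their counts as description only. The list closest to the 10 genes, other phosphatases and feedback inhibitors, had 7 of 15 higher and 0 lower with a median difference of 0.61, and 9 higher and 0 lower without replicate 1 (median 0.55). Dusp1, a nuclear phosphatase of several MAP kinases, had 10.31, 9.88 and 10.05 on the transgenic arrays, against 8.53, 8.24 and 8.23 on the controls, and rose by 1.75 (SE 0.146, limma adjusted p = 0.00224). Errfi1, an inhibitor that binds the EGF receptor itself, had 11.88, 12.10 and 12.08 on the transgenic arrays, against 10.95, 10.90 and 10.58 on the controls, and rose by 1.21 (SE 0.128, limma adjusted p = 0.0043). Both held in all alternatives run, with differences of 1.63 and 1.28 without transgenic replicate 1. Spred2, a relative of Spred1, rose by 0.61 (limma adjusted p = 0.0147) and Lrig3 by 0.58 (0.00922). Dusp8, Dusp14 and Dusp10 rose by 1.21, 0.93 and 0.62 (limma adjusted p = 0.0361, 0.0462 and 0.026). All 5 passed without transgenic replicate 1, with differences of 0.55 for Spred2, 0.61 for Lrig3, 1.51 for Dusp8, 0.71 for Dusp14 and 0.53 for Dusp10. These 5 each lost the call with 2 or more arrays left out singly, with limma adjusted p-values up to 0.0717 for Spred2, 0.0534 for Lrig3, 0.137 for Dusp8, 0.176 for Dusp14 and 0.117 for Dusp10. Dusp8 also missed the threshold when its rows were averaged (1.19, limma adjusted p = 0.062), and Dusp14 did under trend and robust moderation (limma adjusted p = 0.0505).

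Spry3, named here after its values were seen, was the Sprouty gene that parted from the rest. It had 6.47, 9.62 and 9.52 on the transgenic arrays, against 8.37, 8.56 and 8.66 on the controls. Transgenic replicate 1 lay about 2 log2 units below the controls and replicates 2 and 3 about 1 above them. The difference was 0.00 with all arrays (SE 0.839, limma adjusted p = 0.999), and without replicate 1 Spry3 rose by 1.04 (SE 0.106, limma adjusted p = 2.08e-04).

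Among receptor tyrosine kinases and their ligands, 4 of 15 rose and 2 fell (median 0.03), and without transgenic replicate 1, 5 rose and 4 fell (median 0.01). The EGF receptor ligands Ereg, Btc and Hbegf rose by 3.75, 1.91 and 1.52 (limma adjusted p = 0.00195, 0.0319 and 0.0211), and by 4.08, 1.44 and 1.41 without replicate 1. The receptor Met rose by 0.64 (limma adjusted p = 0.0209), while Erbb2 and Fgfr2 fell by 1.10 and 0.91 (limma adjusted p = 0.00876 and 0.00964). Without replicate 1 Met rose by 0.57, and Erbb2 and Fgfr2 fell by 0.98 and 0.79. Egfr differed by 0.46 and did not pass (limma adjusted p = 0.109, and 0.0699 with a difference of 0.40 without replicate 1), and the ligand Areg was not analysed here. Of the 6 calls Ereg held with each array left out, and the other calls were lost in some of those fits, with limma adjusted p-values up to 0.135 for Btc, 0.0939 for Hbegf, 0.1 for Met, 0.0543 for Erbb2 and 0.0571 for Fgfr2.

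Of 15 measured genes of the kinase cascade that links receptors to ERK, Nras alone rose and 0 fell (median 0.20), a share near that of all genes, and without transgenic replicate 1, 6 rose and 2 fell (median 0.14). Nras, one of the Ras switches, had 10.22, 9.94 and 9.85 on the transgenic arrays, against 9.08, 8.96 and 8.98 on the controls, and rose by 1.00 (SE 0.116, limma adjusted p = 0.00554), with every array left out in turn as well (0.89 without transgenic replicate 1).

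Of 18 genes listed as ERK output, among them the repressor gene Cic, 3 rose and 0 fell (median 0.47). Without transgenic replicate 1, 8 rose and 1 fell (median 0.22), and the 1 that fell was Cic. Egr1, an immediate early transcription factor, had 9.68, 9.02 and 8.66 on the transgenic arrays, against 6.39, 6.81 and 6.47 on the controls, and rose by 2.57 (SE 0.272, limma adjusted p = 0.0043). It passed in every alternative, with 2.29 without transgenic replicate 1. The ephrin receptor gene Epha2 rose by 1.25 (limma adjusted p = 0.0245) and Phlda3, a relative of Phlda1 known as a p53 target, by 0.31 (0.0473), and without replicate 1 by 0.96 and 0.30. Epha2 and Phlda3 lost the call without any control array or without transgenic replicate 2, Phlda3 also without transgenic replicate 3, with limma adjusted p-values up to 0.105 and 0.205. Phlda3 also missed the threshold with the dimmest genes removed (limma adjusted p = 0.0619) and under trend and robust moderation (0.0788). Fos, an immediate early gene often read with Egr1, had 9.33, 9.58 and 9.57 on the transgenic arrays and 9.27, 9.65 and 9.51 on the controls, a difference of 0.01 (limma adjusted p = 0.966), and 0.10 without transgenic replicate 1 (0.659). Etv1, the third PEA3 factor, differed by -0.27 (limma adjusted p = 0.238) and by -0.21 without transgenic replicate 1 (0.244). The repressor gene Cic had 6.75, 7.21 and 7.28 on the transgenic arrays, against 7.66, 7.69 and 7.58 on the controls, a difference of -0.56 that did not pass (limma adjusted p = 0.0693), and without replicate 1 it fell by 0.40 (limma adjusted p = 0.00746). Plaur, Fosl1, Myc, Phlda2 and Ier2 differed by 2.12, 1.46, 1.16, 1.13 and 0.62 and did not pass (limma adjusted p = 0.0768 to 0.282). Without replicate 1 they rose by 1.24, 0.63, 0.48, 0.46 and 0.45 (limma adjusted p = 8.82e-05 to 0.0219). These genes, and Fos, Etv1, Cic and Egfr, were named after their values were seen.

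**Figure D4:**
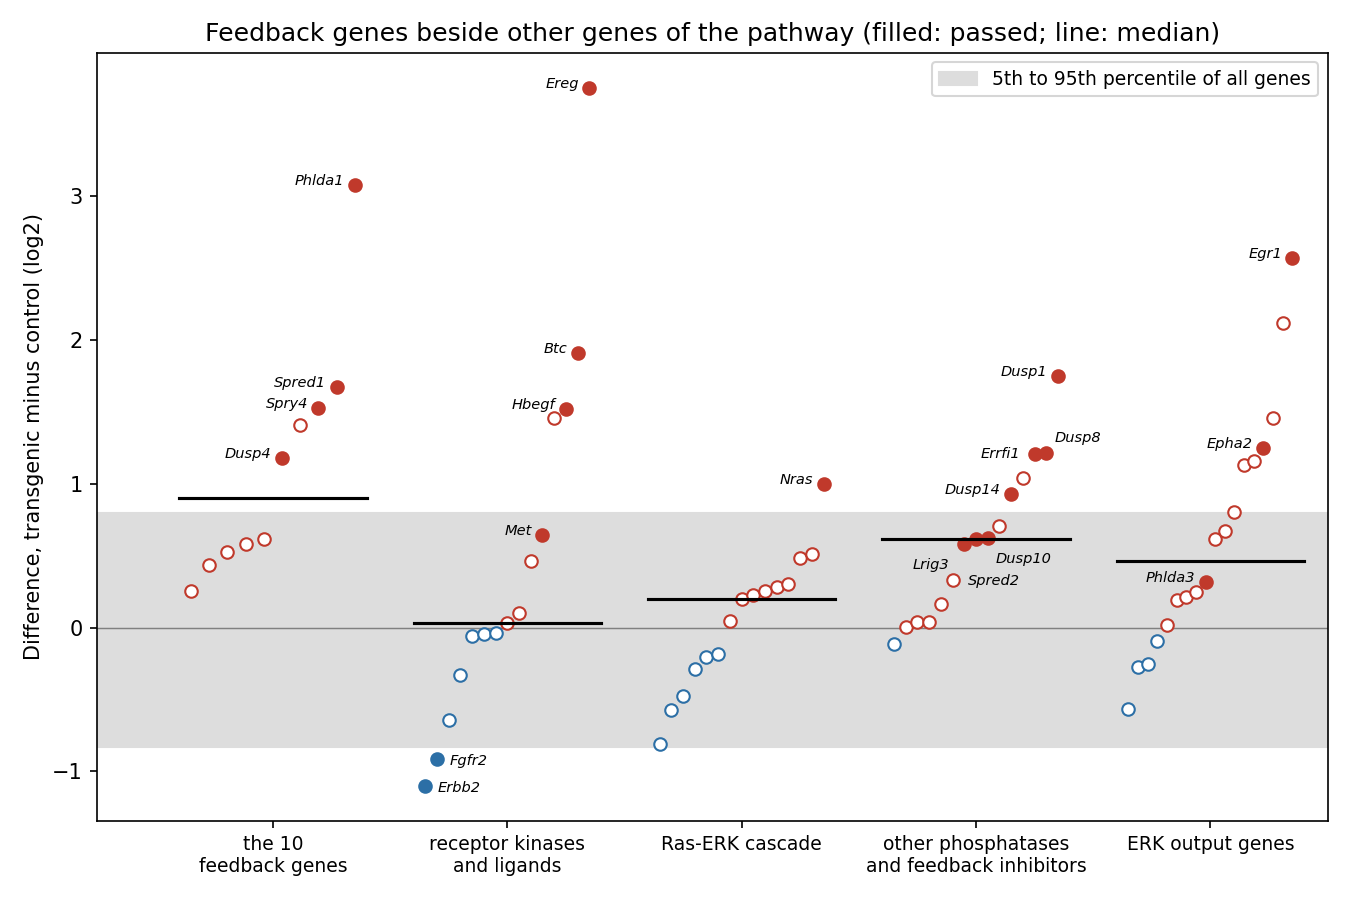
Difference between transgenic and control means (log2, vertical axis) of the 10 feedback genes and of 4 lists of other pathway genes, 1 point per gene in rising order, filled and named where it passed limma's adjusted p of 0.05, with the black line as list median and the grey band from the 5th to the 95th percentile of all genes (-0.83 to 0.79). The medians are 0.90 for the feedback genes, 0.03 for receptors and ligands, 0.20 for the cascade, 0.61 for other phosphatases and inhibitors, and 0.47 for output genes.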

How the data were processed

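Jejunal epithelial RNA, 250 ng per array per the labels' protocols, was measured on 6 arrays, grouped by sample title into 3 transgenic and 3 control. The values deposited by the authors are log2 signals, and the submitters' processing notes name RMA and Partek 6.5; their settings are not stated there. Since RMA equalizes the arrays, differences in total RNA between preparations are lost, and low signals are compressed. Array medians were 6.27 to 6.34. The number of arrays limits the precision, and the table gives no detection calls.

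Of 35399 rows, 21789 had 1 gene symbol and were named through the platform annotation, which left 19938 genes. RefSeq (GRCm38.p6) supplied chromosomes and promoter sequence. Each transgenic mean minus its control mean was tested by limma 3.58.1 (R 4.3.3; lmFit and eBayes, Benjamini-Hochberg over all genes, threshold 0.05), which was tested on simulated data first. Intervals are 95%. The feedback genes, lists and markers were chosen with earlier results of these data known. Named were all 10 genes, Msi1 and Msi2, and up to 4 passing genes per list with the smallest p, plus others a group sentence would hide. The fit was repeated with each array left out, array weights, a replicate block, trend and robust moderation, equal array medians, quantile normalization, the dimmest 40% of genes dropped, a gene's rows averaged, and a threshold of 0.1.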

Additional observations from a re-analysis of the deposited data

How the results depend on the processing

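The count of feedback genes called higher was 4 of 10 with all arrays and 0 were called lower in any alternative. It was 2 with equal array medians and 2 with the replicate block, and 1 to 8 with 1 array left out (8 without transgenic replicate 1, and 1 without any single control). The replicate block ended the calls of Dusp4 and Spry4 (limma adjusted p = 0.0765 and 0.082), and among the other pathway genes named those of Btc, Hbegf, Met, Erbb2, Lrig3, Spred2, Dusp10, Dusp8, Epha2 and Phlda3 (0.0516 to 0.203). The count of feedback genes was 4 to 6 under the other alternatives. Of other pathway genes 15 were called higher and 2 lower with all arrays. With the replicate block these counts were 6 and 1, with array weights 26 and 6, and with an adjusted p under 0.1 the lower count was 5. Leaving out 1 array gave 5 to 28 higher and 0 to 7 lower. Direction was kept by all 10 feedback genes in all 14 alternatives, but not all of these could change it. The replicate block, trend and robust moderation, dropping dim genes and the threshold of 0.1 leave the difference itself unchanged. Averaging rows does so too for genes with 1 row. The differences of Spry3 and Fos, neither of which passed with all arrays, turned negative with quantile normalization (-0.018 and -0.033) and without control replicate 1, transgenic replicate 2 or transgenic replicate 3, and with 1 array left out they ran from -0.54 to 1.04 for Spry3 and from -0.087 to 0.10 for Fos. The cause of these changes was not tested, except that leaving out an array leaves fewer samples. Deviations of same-numbered arrays from their group means correlated at -0.07, -0.17 and -0.12 across genes. Transgenic replicate 1 dominates the deviations of its group, so these values cannot decide whether the numbers are pairs. The sample titles state no pairs, and the main fit used none.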
